A study of Mus musculus with 12 samples.

Results

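Fibrinogen is the plasma protein that thrombin turns into the fibrin of a clot, and the 3 genes described here encode its chains: Fga (Aα chain), Fgb (Bβ chain) and Fgg (γ chain). They are 3 of the 16728 genes listed, all 3 were among the 12275 that passed the filter on low counts, and they were picked by name with their response to FAC in cells without Fxr already known. That comparison and those that share its libraries are therefore described without a test, and the chains were tested for FAC in WT cells. The KO libraries still entered the spread used for that test. Whether the WT values had a part in the choice is not known. RNA was sequenced from mouse primary hepatocytes, liver cells taken into culture, in 12 libraries. The groups were Fxr-/- (KO) cells with FAC at 100 µM, KO cells with AC at 100 µM, wild-type (WT) cells with FAC at 100 µM and WT cells with AC at 100 µM, with 3 libraries in each. All cells carried the strain label C57BL/6, were kept in DMEM with fetal bovine serum and were exposed for 24 h. FAC and AC are given only as these abbreviations, and the series title names iron overload as the subject. Fxr, the product of Nr1h4, is a nuclear receptor that bile acids activate. The labels give neither the exons that the Fxr-/- allele lacks nor the age or number of the mice, and nothing in them tells if the 3 libraries of a group were made from different mice or dishes, so p-values measure the spread between these samples, which may be technical.

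Hepatocytes make nearly all fibrinogen of the blood. Each molecule is a dimer in which each side holds one Aα, one Bβ and one γ chain, so the chains are needed in equal numbers, and they are assembled and linked by disulfide bonds in the endoplasmic reticulum. The genes are transcribed together at a high basal level through HNF1 and C/EBP factors, and interleukin-6 raises all of them in the acute phase through STAT3 and C/EBP proteins. In human liver cells, bile acids acting through FXR are known to raise fibrinogen transcription. The genes lie side by side on chromosome 3 within 42.1 kb (GRCm38.p6). Fgg spans positions 83007724 to 83015056 on the plus strand, Fga 83026153 to 83033627 on the plus strand and Fgb 83042246 to 83049863 on the minus strand, so that Fga and Fgb point towards each other. The gaps are 11.1 kb between Fgg and Fga and 8.62 kb between Fga and Fgb. In GENCODE M21, Fgb has 1 transcript of 8 exons, Fga has one of 5 exons and one of 6 exons, and Fgg has one of 10 exons and one of 9 exons. A long non-coding RNA on the opposite strand overlaps the start of Fgg in the annotation, and as nothing states whether counting used the strand, reads of that pair cannot be told apart.

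The sequences just upstream of the 3 starts are shown as a description. The chains did not move in one ratio, as described further on, and a link of that to these sequences was not tested. They were read from RefSeq (GRCm38.p6) in the direction of transcription, and each ends at the base before transcription starts, or for Fga before an earlier start in GENCODE. Capitals mark matches on either strand to CTGGGAA (the interleukin-6 response element bound by STAT3), TTGCNNAA (C/EBP) or GTTAAT (one arm of an HNF1 site). These motifs were picked after the sequences had been seen.
Fgg, chr3:83007474-83007723, plus strand: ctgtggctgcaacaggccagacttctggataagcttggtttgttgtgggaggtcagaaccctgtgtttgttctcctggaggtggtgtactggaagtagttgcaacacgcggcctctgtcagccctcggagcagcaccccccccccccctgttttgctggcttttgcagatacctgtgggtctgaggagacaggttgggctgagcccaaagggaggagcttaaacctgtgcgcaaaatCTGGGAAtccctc
Fga, chr3:83025903-83026075, plus strand: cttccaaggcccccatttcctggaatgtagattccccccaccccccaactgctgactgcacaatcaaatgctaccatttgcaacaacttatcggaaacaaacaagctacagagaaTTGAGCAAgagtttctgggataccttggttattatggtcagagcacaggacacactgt
Fgb, chr3:83049864-83050113, minus strand: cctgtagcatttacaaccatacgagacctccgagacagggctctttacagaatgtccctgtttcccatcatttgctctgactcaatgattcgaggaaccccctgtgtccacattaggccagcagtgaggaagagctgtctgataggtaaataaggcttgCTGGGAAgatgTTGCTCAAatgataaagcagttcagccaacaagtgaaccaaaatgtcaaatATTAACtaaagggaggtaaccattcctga
In the 250 bases before each RefSeq start, CTGGGAA occurred once in Fgg at -13 and once in Fgb at -91, and not in Fga. The same letters were found in 9.1% of 32851 promoters searched in windows of that length. TTGCNNAA occurred in Fgb at -80, next to the CTGGGAA, and on the opposite strand in Fga at -135 (9.56% of promoters). GTTAAT occurred on the opposite strand in Fgb at -29 and in Fga at -43, beyond the stretch printed (6.43% of promoters). TATAAA was in none of the 3 windows (12.4% of promoters). The Fxr inverted repeat, 2 copies of AGGTCA facing each other with 1 base between them, was also in none (0.00609% of promoters), and a single AGGTCA was in Fgg at -201 (14.0% of promoters). A match to such letters describes the sequence and not binding. Nor does the lack of an exact match, as of CTGGGAA in Fga, show that a site is missing.

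The libraries held 16464494 to 18335700 estimated reads each, with 14249 to 14491 genes read at least once. The targeted gene Nr1h4 was at 3.54 to 4.89 CPM (counts scaled to the library total) in KO FAC, 6.97 to 9.35 in KO AC, 6.95 to 7.69 in WT FAC and 13 to 15.6 in WT AC. Counts over a whole gene do not test a deletion of some of its exons. On the first principal component (59.2% of the variance) all KO libraries lay apart from all WT libraries. On the third (7.42%) the KO groups were divided within themselves: KO FAC 6 (27.7), KO AC 1 (13.5) and KO FAC 5 (3.26) lay above 0 and KO FAC 4 (-22.7), KO AC 2 (-14.6) and KO AC 3 (-9.63) below it. Summed CPM of 11 hepatocyte markers was 30380 to 30990 in KO FAC, 23460 to 25090 in KO AC, 31110 to 32920 in WT FAC and 23360 to 24060 in WT AC, so hepatocyte RNA was plain in all groups. Most of that sum was Alb (albumin), at 22000 CPM in KO FAC, 18200 in KO AC, 27900 in WT FAC and 20400 in WT AC. The sum thus says little of the other markers. Platelets carry fibrinogen, but the 4 of 8 platelet and megakaryocyte markers found among the genes of the series summed to at most 4.12 CPM in any library. Among called genes the share that was higher was 50.6% for FAC in KO, 50.4% for FAC in WT, 49.7% for KO under FAC and 50.7% for KO under AC, and on the TPM scale, where each library sums to one total over all genes, it was 18.5%, 22.9%, 28.2% and 32.2%. On that scale the median log2 fold change of all genes was -0.15, -0.10, -0.17 and -0.11, against values within 0.02 of 0 in the count model.

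All 3 chains were abundant in every library, and all were highest in KO hepatocytes given FAC. Fga mRNA was at 460.2, 547 and 613 FPKM (reads scaled by transcript length and library total) in KO FAC, at 263, 227 and 220.5 FPKM in KO AC, at 53.9, 59.7 and 70.8 FPKM in WT FAC and at 49.7, 57.0 and 47.0 FPKM in WT AC. KO FAC and KO AC stood apart from each other and from WT, while the WT FAC and WT AC libraries overlapped. Fgb mRNA was at 1246, 1453 and 1669 FPKM in KO FAC, at 875, 734 and 694 FPKM in KO AC, at 375, 419.8 and 511 FPKM in WT FAC and at 394, 467 and 399.9 FPKM in WT AC. Its order was the same, with WT FAC and WT AC again overlapping. Fgg mRNA was at 752, 965 and 1041 FPKM in KO FAC, at 524, 408 and 399.0 FPKM in KO AC, at 185, 213 and 222 FPKM in WT FAC and at 97.1, 117 and 98.2 FPKM in WT AC. Fgg was the one chain whose 4 groups did not overlap anywhere. In each of the 12 libraries the level per length ran in the order Fgb, Fgg, Fga. RNA of all cells in a culture was measured together, so fewer cells of a type and less RNA per cell cannot be told apart.

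**Figure D1:**
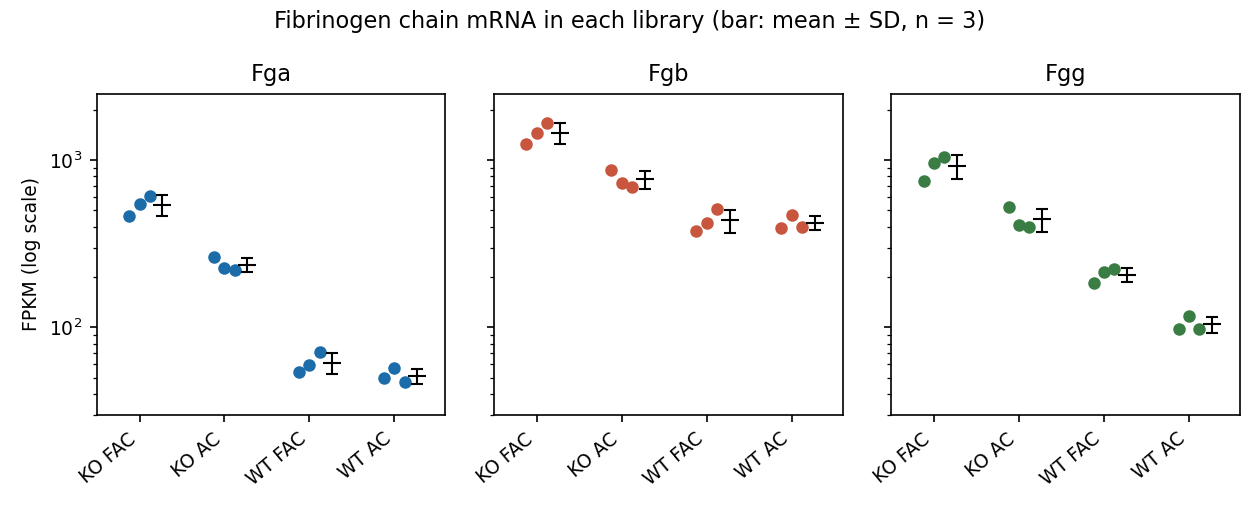
FPKM of Fga, Fgb and Fgg (log axis) in each library of KO FAC, KO AC, WT FAC and WT AC, with the group mean and SD (n = 3) beside the points. The 3 KO FAC points are the highest for every chain, and WT FAC and WT AC overlap for Fga and Fgb but not for Fgg.

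As group means, Fga stood at 540.1 ± 76.7 FPKM in KO FAC, 237 ± 22.8 in KO AC, 61.5 ± 8.59 in WT FAC and 51.2 ± 5.15 in WT AC (SD, n = 3 each). Fgb stood at 1456 ± 212 FPKM in KO FAC, 768 ± 94.9 in KO AC, 435 ± 69.4 in WT FAC and 420.3 ± 40.9 in WT AC. Fgg stood at 919 ± 149.7 FPKM in KO FAC, 444 ± 69.6 in KO AC, 207 ± 19.3 in WT FAC and 104 ± 11.1 in WT AC. As a ratio of the highest mean to the lowest, the range was widest for Fga and narrowest for Fgb, the most abundant chain. As a difference in FPKM it was widest for Fgb and narrowest for Fga. The summed level of the chains was 2458, 2965 and 3324 FPKM in KO FAC, 1662, 1369 and 1314 FPKM in KO AC, 614, 692.5 and 804 FPKM in WT FAC and 540.4, 641 and 545 FPKM in WT AC, and here too WT FAC and WT AC overlapped. Within KO, the library that was highest in KO AC (KO AC 1) and the one that was lowest in KO FAC (KO FAC 4) were the same for all 3 chains. On the third component each of these lay on the other side of 0 from the rest of its group, and the part of that division in the levels was not tested.

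In KO hepatocytes FAC went with about doubled levels of all 3 chains. The log2 fold change of FAC over AC was 1.31 ± 0.12 (SE) for Fga, a 2.47-fold difference, 1.01 ± 0.13 for Fgb (2.01-fold) and 1.13 ± 0.13 for Fgg (2.19-fold). Every KO FAC library was above every KO AC library for 3 of the 3 chains, where 19.7% of all tested genes showed that pattern. The chains were chosen with this comparison known, so nothing is read from that count. Without KO AC 1 and KO FAC 4 the values were 1.49, 1.22 and 1.39 for Fga, Fgb and Fgg, and without KO AC 1 and KO FAC 6 they were 1.32, 1.03 and 1.19, alternatives that were added after the data had been seen.

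In WT hepatocytes the γ chain alone passed the test. Fgg was 2.05-fold higher in WT FAC than in WT AC (log2 fold change 1.04 ± 0.13 SE, adjusted p = 0.000301 by the quasi-likelihood test of edgeR with Benjamini-Hochberg adjustment over 12275 genes), and all 3 WT FAC libraries were above all 3 WT AC libraries. Fga was 1.25-fold higher in WT FAC with overlapping libraries (0.33 ± 0.12, adjusted p = 0.081 in the same edgeR test). The interval of Fga, taken as 2 SE either side, ran from 0.09 to 0.57 on the log2 scale. Fgb was nearly level (0.10 ± 0.13, 1.07-fold, adjusted p = 0.669 in the same edgeR test), with an interval from -0.17 to 0.36 and values of -0.04 on the TPM scale and -0.03 without WT FAC 6. A p over the threshold does not show that Fga and Fgb did not respond, and the upper ends of their intervals lie below the lower end of the Fgg interval (0.77 to 1.31). One of 3 chains was called, against 17.2% of all tested genes. In a fit of the WT groups alone, which holds no KO library, the log2 fold change was 1.03 for Fgg (adjusted p = 5.43e-05), 0.32 for Fga (adjusted p = 0.0695) and 0.09 for Fgb (adjusted p = 0.653), all in edgeR. The call of Fgg held in each of 18 alternatives, with log2 fold changes from 0.91 to 1.14 and adjusted p (edgeR, limma or DESeq2) up to 0.00304. Fga passed without WT AC 2 (0.43, adjusted p = 0.0456 in edgeR) and failed when any other WT library was left out (adjusted p up to 0.28), and over all 18 alternatives its adjusted p ran from 0.0369 to 0.297. It also passed when only KO libraries were left out. The adjusted p was 0.0369 in edgeR when KO FAC 4 and KO AC 1 were dropped. It was 0.0445 when KO FAC 6 and KO AC 1 were dropped.

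The effect of FAC in KO minus that in WT was 0.98 ± 0.17 for Fga, 0.91 ± 0.19 for Fgb and 0.09 ± 0.19 for Fgg on the log2 scale (SE). The FAC effect on Fga and Fgb was thus larger in KO than in WT, and that on Fgg was similar in size in both. These differences hold the KO comparison and were not tested for the chains, and 3.15% of all tested genes were called in that contrast, 1.87% with a positive and 1.28% with a negative difference. Without KO AC 1 and KO FAC 4 the differences were 1.16, 1.12 and 0.36, and that of Fgg was -0.01 without WT AC 2. Hepatocyte markers moved in both FAC comparisons: 9 of 11 were higher and 0 lower with FAC in KO, where 15.0% of all tested genes were higher and 14.6% lower. With FAC in WT 6 were higher and 2 lower, where 8.7% and 8.55% of all tested genes were. Their part in the chains' values was not tested.

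**Figure D2:**
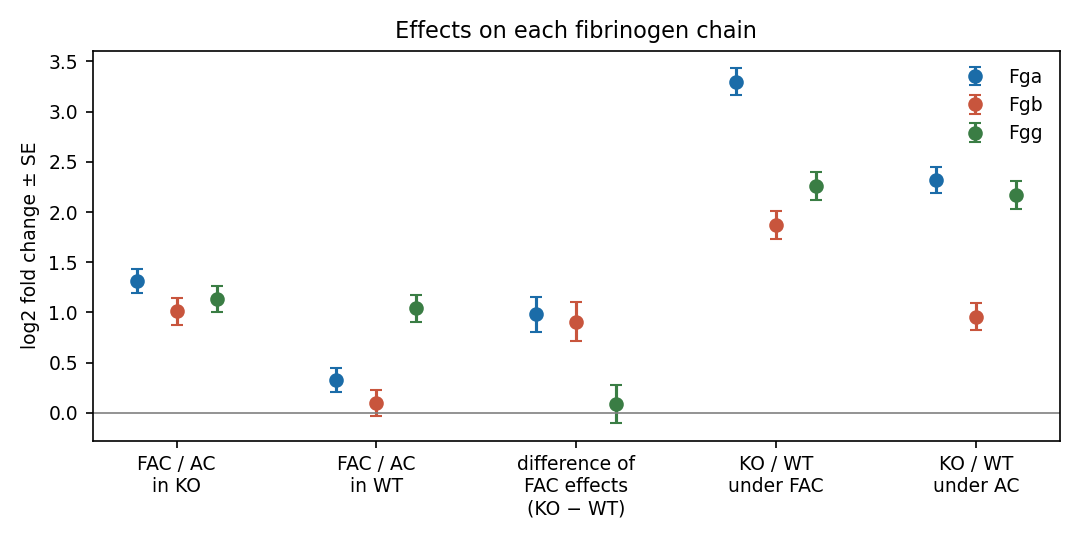
Log2 fold change with its SE from the edgeR model for Fga, Fgb and Fgg, for FAC over AC in KO and in WT, the difference of those effects, and KO over WT under FAC and under AC. Fgg lies near 1 for FAC in both genotypes (1.13 and 1.04), while Fga and Fgb lie at 1.31 and 1.01 in KO and at 0.33 and 0.10 in WT.

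KO hepatocytes held more mRNA of every chain than WT hepatocytes under either treatment, and the size of the gap depended on the chain. Under FAC the log2 fold change of KO over WT was 3.30 ± 0.13 for Fga (9.86-fold), 1.87 ± 0.14 for Fgb (3.65-fold) and 2.26 ± 0.14 for Fgg (4.79-fold). Under AC it was 2.32 ± 0.13 for Fga (5.0-fold), 0.96 ± 0.13 for Fgb (1.94-fold) and 2.17 ± 0.14 for Fgg (4.5-fold). Fga had the widest gap and Fgb the narrowest under both treatments, and Fgg had nearly the same gap under both. The KO and WT libraries did not overlap for 3 of 3 chains under FAC, where 28.5% of all tested genes were higher in that way, and for 3 of 3 under AC, where 26.5% were. The comparisons of KO with WT share KO libraries with the one that chose the chains, and each FAC comparison shares its libraries with those of genotype, so the values stand side by side as descriptions.

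Marker RNA of several cell types moved with genotype as well. Of 11 hepatocyte markers, 8 were higher and 1 lower in KO under FAC (median log2 fold change 1.25), and 8 were higher and 2 lower under AC (1.62). Of all tested genes 24.6% were higher and 24.9% lower in KO under FAC, and 21.7% and 21.2% under AC. Summed CPM of 7 stellate cell and fibroblast markers was 4.45 to 6.67 in KO FAC, 6.42 to 7.39 in KO AC, 12.4 to 12.5 in WT FAC and 13.6 to 17.0 in WT AC, with Col1a2 at 0 in KO FAC. Of 5 tested markers 0 were higher and 4 lower in KO under either treatment. That of 5 cholangiocyte markers was 149 to 165 in KO FAC, 92.4 to 104 in KO AC, 343 to 387 in WT FAC and 385 to 403 in WT AC, with Krt7 at 0 in KO FAC. Most of that sum was Spp1 (osteopontin), at 82.4 CPM in KO FAC, 52.2 in KO AC, 337 in WT FAC and 361 in WT AC. Krt19 (1.59 ± 0.22) and Sox9 (0.97 ± 0.20) were called higher in KO under FAC. The median of the 4 tested was 0.70 under FAC and 0.44 under AC. That of 9 Kupffer cell and macrophage markers was 728 to 864 in KO FAC, 556 to 689 in KO AC, 655 to 706 in WT FAC and 352 to 430.0 in WT AC, with Clec4f at 0 in KO FAC and KO AC and Timd4 at 0 in KO FAC and WT FAC. Nearly all of it was Cd68, at 807 CPM in KO FAC, 631 in KO AC, 671 in WT FAC and 387 in WT AC. Of 5 tested markers Cd68 alone was called higher in KO. Adgre1 (-2.72 ± 0.50 under FAC, -2.76 ± 0.33 under AC), Marco (-2.94 ± 0.69, -2.75 ± 0.43) and Lyz2 (-2.49 ± 0.47, -3.05 ± 0.46) were lower under both treatments. That of 8 endothelial markers was 29.9 to 39.5 in KO FAC, 39.0 to 46.0 in KO AC, 39.8 to 46.3 in WT FAC and 41.7 to 46.2 in WT AC, with Clec4g at 0 in KO FAC, KO AC and WT FAC. These sums were lower in every KO FAC library than in any WT FAC library, and those of KO AC and WT AC overlapped. Of 7 tested markers 1 was higher and 4 lower in KO under FAC (median log2 fold change -1.83) and likewise 1 and 4 under AC (-0.78). Under FAC Stab2 was higher (1.40 ± 0.19) and Pecam1 lower (-2.44 ± 0.21). Leukocyte markers summed to at most 1.2 CPM. The part of these differences in the chains' levels was not tested.

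The balance between the chains differed between the groups. Per length, Fgb made up 50.0% ± 0.86 of the summed FPKM in KO FAC, 53.0% ± 0.50 in KO AC, 61.7% ± 1.6 in WT FAC and 73.0% ± 0.29 in WT AC (SD, n = 3 each). The Fgb share was lowest in KO FAC and highest in WT AC, and no 2 groups overlapped. Fgg made up 31.5% ± 0.98 in KO FAC, 30.6% ± 0.88 in KO AC, 29.5% ± 1.7 in WT FAC and 18.1% ± 0.14 in WT AC. WT AC alone lay low for this chain, at 18.0% to 18.2%, with every other library between 27.6% and 32.5%. Fga made up 18.5% ± 0.16 in KO FAC, 16.4% ± 0.51 in KO AC, 8.74% ± 0.098 in WT FAC and 8.90% ± 0.29 in WT AC. The Fga share thus divided by genotype, with 15.8% or more in every KO library and 9.2% or less in every WT library. The shares were equal to 3 digits with TPM. Counted as estimated reads, with no correction for length, Fga made up 30.2% in KO FAC, 26.7% in KO AC, 15.0% in WT FAC and 15.1% in WT AC, so that genotype parted it in the same way.

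**Figure D3:**
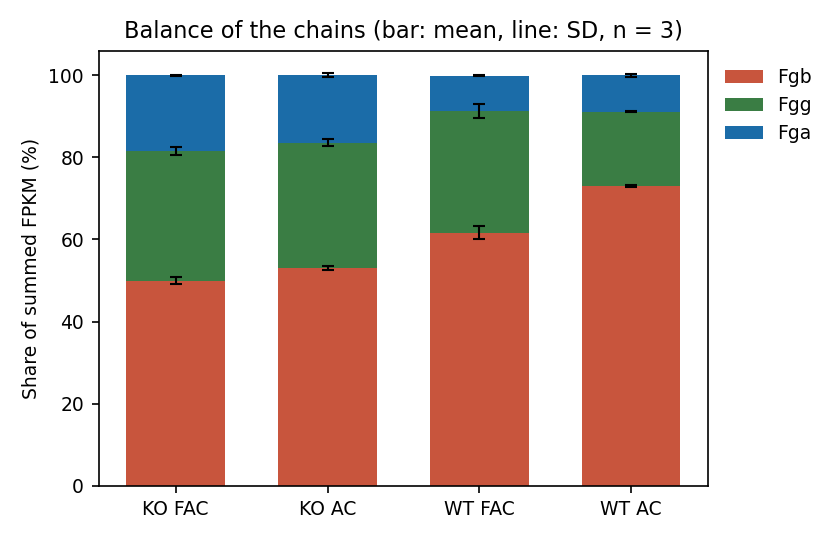
Mean share of Fgb, Fgg and Fga in the summed FPKM of the chains (stacked bars from 0 to 100%), with the SD over 3 libraries as a line at the top of each segment, in KO FAC, KO AC, WT FAC and WT AC. Fgb takes 50.0% in KO FAC and 73.0% in WT AC, and the Fga share is about doubled in the KO groups.

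The ratio of γ to β chain mRNA, taken within each library, was 0.604, 0.664 and 0.624 in KO FAC, 0.599, 0.556 and 0.575 in KO AC, 0.494, 0.508 and 0.435 in WT FAC and 0.247, 0.250 and 0.246 in WT AC. WT AC was the low group, and its 3 libraries were within 0.01 of each other. The ratio of γ to α chain mRNA was 1.64, 1.76 and 1.70 in KO FAC, 1.99, 1.80 and 1.81 in KO AC, 3.44, 3.57 and 3.14 in WT FAC and 1.95, 2.05 and 2.09 in WT AC. Here WT FAC was the high group, and KO AC and WT AC overlapped. The ratio of α to β chain mRNA was 0.369, 0.376 and 0.367 in KO FAC, 0.301, 0.309 and 0.317 in KO AC, 0.144, 0.142 and 0.139 in WT FAC and 0.126, 0.122 and 0.118 in WT AC, and no 2 groups overlapped. In WT, where the ratios were tested, FAC and AC did not overlap for any of the 3 (log2 difference 0.95 for γ to β, 0.73 for γ to α and 0.22 for α to β). The two-sided exact permutation test gave p = 0.1 for each, which is the smallest that 3 libraries against 3 can give, and 0.1 after adjustment over the 3 ratios, so none could pass. The ratios also separate a change of the chains against each other from any scaling of a library, since a factor common to a library cancels.

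The effective length behind each chain can be read back from the deposited reads, FPKM and totals. For Fgb it was 1563 to 1571 bases over the 12 libraries, and for Fgg 1587 to 1613 bases. For Fga it was 2988 to 3018 bases in KO FAC, 2902 to 2962 in KO AC, 2900.0 to 2927 in WT FAC and 2853 to 2903 in WT AC. The length used for Fga was thus greatest in KO FAC, whose libraries did not overlap any other group. The Fga transcripts of GENCODE M21 have 2083 and 2587 bases, both shorter than the length read back. The transcripts that the authors used are not given in the sources used here, so the share of each was not analysed here. The step in length is small beside the 9.86-fold gap between KO and WT under FAC.

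The nearest tested gene that flanks the cluster was lower in KO, where the chains were higher. Of the 5 listed genes on each side, Map9 before it and Plrg1, Tlr2, Tmem131l and Mnd1 after it passed the filter on low counts. Plrg1, a splicing factor gene 6 kb beyond Fgb, was at 51.9 to 76.5 CPM over all libraries. It fell by 0.24 ± 0.08 on the log2 scale in KO under FAC (adjusted p = 0.0194, edgeR) and by 0.34 ± 0.08 under AC (adjusted p = 0.00372, edgeR), against gaps of 0.96 to 3.30 for the chains, and it was not called with FAC in KO or in WT. The call under FAC was lost without KO FAC 4 or WT FAC 5 (adjusted p up to 0.0968 in edgeR). Map9, 612 kb away, was higher with FAC in KO (0.58 ± 0.19), in KO under FAC (0.62 ± 0.19) and in KO under AC (0.55 ± 0.20), calls that were lost in 4, 3 and 4 of 6 fits with a compared library left out. Tmem131l was lower with FAC in WT (-0.51 ± 0.12), in KO under FAC (-0.33 ± 0.13, lost in 5 of 6 such fits) and in KO under AC (-0.61 ± 0.12). Tlr2 and Mnd1 were called in none of these comparisons.

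Genes with a profile over the 12 libraries most like the mean profile of the chains were sought among 7623 genes with a mean of at least 5 FPKM, by the root mean square difference of log2 CPM after each gene was centred on its own mean. The nearest was Cyp2a5, a cytochrome P450 that oxidises coumarin and nicotine, at 0.11. It was followed by Asgr1, a subunit of the asialoglycoprotein receptor, at 0.14, the acute-phase serpin Serpina3n at 0.18 and the ribonuclease gene Ang at 0.19. Rgn (regucalcin), Creld2 (an endoplasmic reticulum protein), Cyp2d9 and Apoa2 (an apolipoprotein of high-density lipoprotein) followed, each at 0.21. The chains themselves lay at 0.34 for Fga, 0.40 for Fgb and 0.20 for Fgg from their own mean profile, so 4 genes outside the cluster lay nearer to it than Fgg did. With log2(FPKM + 1) in place of log2 CPM, 7 of the 8 genes stayed in the list. The list describes likeness over these 12 libraries, which share treatment and genotype, and Cyp2a5, Cyp2d9 and Serpina3n have near-identical copies between which reads may be divided.

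**Figure D4:**
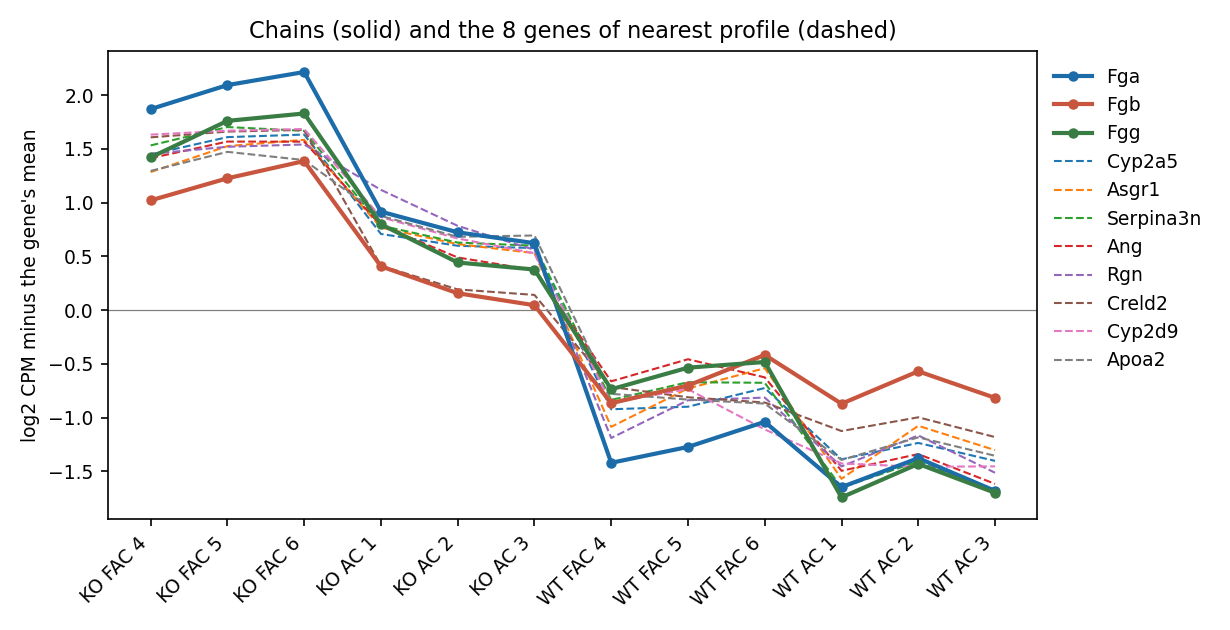
Log2 CPM of Fga, Fgb and Fgg (solid) and of the 8 genes of nearest profile (dashed) in each of 12 libraries, each gene minus its own mean over the libraries. All 11 lines are highest in KO FAC, lower in KO AC and lowest in WT, and Fgb is the chain with the smallest gap between WT FAC and WT AC.

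Genes of 9 lists around fibrinogen were set beside the chains, and each count can be read against the shares of all tested genes: 29.6% called with FAC in KO (15.0% higher, 14.6% lower), 17.2% with FAC in WT (8.7% and 8.55%), 49.5% in KO under FAC (24.6% and 24.9%) and 42.9% in KO under AC (21.7% and 21.2%). Adjusted p-values of named genes are from edgeR over 12275 genes. Of 15 tested genes of interleukin-6 and STAT3 signalling, 3 were higher and 5 lower with FAC in KO (median log2 fold change -0.23), 1 and 3 with FAC in WT (-0.13), 2 and 5 in KO under FAC (-0.12) and 3 and 4 in KO under AC (-0.16). The receptor genes that were lower with FAC in KO were Il6ra, the interleukin-6 receptor (-0.83 ± 0.18, adjusted p = 0.00427), and Il6st, its signalling partner gp130 (-0.67 ± 0.13, adjusted p = 0.00249). Both were among the 5 lower genes of the list, beside 3 that were higher. The higher ones were Lifr, Socs3 (0.57 ± 0.16, adjusted p = 0.0187) and Il1rap (0.38 ± 0.10, adjusted p = 0.0102). Il6 itself was called in none of these comparisons, at 0.163 to 0.869 CPM as group means. Lifr, the receptor of leukaemia inhibitory factor, rose by 0.90 ± 0.10 with FAC in KO (adjusted p = 5.44e-05) and by 0.47 ± 0.11 with FAC in WT (adjusted p = 0.0095, 0.0517 without WT FAC 5). It was higher by 1.49 ± 0.10 in KO under FAC and by 1.06 ± 0.11 under AC. Il1r1, the interleukin-1 receptor, was lower in KO under FAC (-0.76 ± 0.16) and AC (-0.81 ± 0.15), and its call with FAC in WT (-0.46 ± 0.15) was lost in 5 of 6 fits without a WT library.

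Of 15 tested transcription factor genes that act at fibrinogen promoters or are nuclear receptors of the liver, 1 was higher and 4 lower with FAC in KO (median log2 fold change -0.24), 0 and 4 with FAC in WT (-0.24), 2 and 2 in KO under FAC (0.08) and 2 and 3 in KO under AC (-0.05). Nr1h4 itself was among the lower ones in all 4. Next in size, Foxa1 was lower with FAC in KO (-0.39 ± 0.12, adjusted p = 0.0262) and Cebpa, which encodes C/EBPα, with FAC in WT (-0.43 ± 0.12, adjusted p = 0.023), calls lost in 3 and 4 of 6 fits with a compared library left out. Foxa3, a forkhead factor of liver genes, was higher in KO under FAC (0.57 ± 0.13, adjusted p = 0.00262) and AC (0.90 ± 0.13, adjusted p = 0.000113).

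Of 20 tested acute-phase genes, 6 were higher and 4 lower with FAC in KO (median log2 fold change 0.11), 8 and 3 with FAC in WT (0.15), 9 and 5 in KO under FAC (0.26) and 10 and 4 in KO under AC (0.53). Of the chains, Fgg alone was called with FAC in WT, and all 3 stood higher in the other comparisons. Acute-phase genes moved in both directions in all 4 comparisons. Serpina3n rose in all of them, by 0.96 ± 0.08 with FAC in KO (adjusted p = 7.55e-06), 0.85 ± 0.09 with FAC in WT (adjusted p = 3.15e-05), 2.36 ± 0.09 in KO under FAC and 2.25 ± 0.09 in KO under AC. Orm3, an acid glycoprotein, was higher still in KO, by 4.07 ± 0.12 under FAC and 3.79 ± 0.12 under AC, although it shares near-identical sequence with Orm1 and Orm2. Its level in WT was low, at 1.95 CPM in WT FAC and 1.91 CPM in WT AC. Steap4, a metalloreductase, fell by 1.60 ± 0.41 with FAC in KO (adjusted p = 0.0193, 0.0507 without KO AC 3 and up to 0.11 over the alternatives), as did Cp, the ferroxidase ceruloplasmin, by 0.76 ± 0.09 (adjusted p = 5.59e-05). With FAC in WT, Crp (C-reactive protein) was higher by 1.0 ± 0.27, a call lost in 5 of 6 fits without a WT library, and Saa4 (a constitutive serum amyloid A) fell by 0.86 ± 0.12 (adjusted p = 0.000431).

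Of 22 tested coagulation factors and inhibitors, 8 were higher and 1 lower with FAC in KO (median log2 fold change 0.21), 5 and 0 with FAC in WT (0.13), 15 and 2 in KO under FAC (0.46) and 14 and 4 in KO under AC (0.52). Serpind1, the thrombin inhibitor heparin cofactor II, rose by 1.20 ± 0.09 with FAC in KO (adjusted p = 2.8e-06), and F3, tissue factor, was lower there (-0.82 ± 0.26), a call lost in 4 of 6 fits without a KO library. With FAC in WT, F13b, the carrier subunit of the factor that crosslinks fibrin, rose by 0.93 ± 0.10 (adjusted p = 4.72e-05) and Serpinc1, antithrombin, by 0.62 ± 0.06 (adjusted p = 1.44e-05). In KO, Proz (protein Z) was higher by 2.75 ± 0.18 under FAC and 2.11 ± 0.18 under AC, F10 by 1.60 ± 0.08 under FAC and F13b by 1.67 ± 0.10 under AC. Proz was low in WT, at 2.36 CPM in both WT FAC and WT AC. Of 12 tested genes of fibrinolysis, the removal of fibrin, 7 were higher and 0 lower with FAC in KO (0.28), 3 and 0 with FAC in WT (0.13), 7 and 1 in KO under FAC (0.72) and 6 and 2 in KO under AC (0.50). Hrg, a plasma glycoprotein that binds plasminogen and fibrinogen, rose by 0.66 ± 0.06 with FAC in KO and 0.89 ± 0.07 with FAC in WT (adjusted p = 1.42e-05 and 3.9e-06), and by 2.71 ± 0.07 in KO under FAC and 2.93 ± 0.07 in KO under AC. Plg, plasminogen, rose by 0.52 ± 0.07 with FAC in WT (adjusted p = 0.000188). Serpinf2, the plasmin inhibitor, was higher in KO under FAC (2.45 ± 0.32) and with FAC in KO (0.96 ± 0.30, lost in 4 of 6 fits without a KO library), and Plat, tissue plasminogen activator, in KO under AC (1.89 ± 0.28). Thbd was called higher with FAC in KO at 1.51 CPM in KO FAC and 0.606 CPM in KO AC, a call lost in 5 of 6 such fits.

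Of 8 tested genes with a fibrinogen-like domain, 4 were higher and 0 lower with FAC in KO (median log2 fold change 0.44), 3 and 0 with FAC in WT (0.40), 3 and 2 in KO under FAC (-0.10) and 3 and 1 in KO under AC (0.02). Angpt2, an angiopoietin, rose by 1.15 ± 0.22 with FAC in KO and 1.65 ± 0.21 with FAC in WT (adjusted p = 0.00179 and 0.000201), and Angptl6 by 0.99 ± 0.13 and 0.72 ± 0.13. Genes above WT in KO included Angptl2 (3.57 ± 0.33 under FAC, 3.33 ± 0.34 under AC) and Fgl1, a liver protein related to the β and γ chains (1.54 ± 0.08 and 1.70 ± 0.08). Angptl2 was low in WT, at 0.805 CPM in WT FAC and 0.654 CPM in WT AC. Fcna, a ficolin, was lower in KO under FAC, at 0.0412 CPM in KO FAC and 0.638 CPM in WT FAC.

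Of 22 tested genes for assembly and secretion, 8 were higher and 1 lower with FAC in KO (median log2 fold change 0.13), 3 and 1 with FAC in WT (-0.02), 12 and 1 in KO under FAC (0.26) and 12 and 1 in KO under AC (0.19). In the difference of the FAC effects 3 of the 22 were higher and 0 lower, against 1.87% and 1.28% of all tested genes. These were Hsp90b1 (0.50 ± 0.10, adjusted p = 0.0199), Calr (0.43 ± 0.09, adjusted p = 0.0247) and P4hb (0.40 ± 0.07, adjusted p = 0.0118), which encode chaperones and a disulfide isomerase of the endoplasmic reticulum. The calls of Hsp90b1 and Calr were lost in 5 and 7 of 12 fits with 1 library left out, and that of P4hb in none. With the replicate number as a block the call of P4hb was lost (adjusted p = 0.0579 in edgeR), as was that of Calr. P4hb was also the gene of the list with the largest gap between KO and WT, at 1.66 ± 0.05 under FAC and 1.27 ± 0.05 under AC, followed by Hsp90b1 under FAC (1.30 ± 0.07) and Pdia6, another disulfide isomerase, under AC (1.05 ± 0.06). Hsp90b1 and Pdia4 rose by 0.60 ± 0.07 and 0.53 ± 0.10 with FAC in KO, and Hspa5, the chaperone BiP, rose by 0.35 ± 0.06 with FAC in WT (adjusted p = 0.00134). Pdia4 was also called there (0.32 ± 0.10), but not in 5 of 6 fits without a WT library.

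Of 11 tested receptors that bind fibrin or fibrinogen, 3 were higher and 2 lower with FAC in KO (median log2 fold change 0.00), 3 and 2 with FAC in WT (-0.05), 3 and 2 in KO under FAC (0.11) and 3 and 3 in KO under AC (-0.06). Itgb3, the β subunit of the platelet fibrinogen receptor, was lower with FAC in KO (-1.31 ± 0.35) and in WT (-1.19 ± 0.33), calls lost in 3 and 6 of 6 fits with a compared library left out. Itgb2 and Itgam encode the subunits of the leukocyte receptor of fibrinogen. Itgb2 rose by 1.26 ± 0.32 with FAC in KO (adjusted p = 0.0105), at 2.84 CPM in KO FAC and 1.18 CPM in KO AC. The call was lost in a fit of the KO groups alone and without KO AC 1 and KO FAC 4 (adjusted p up to 0.0774). Itgam was low throughout and was called lower with FAC in WT, at 0.222 CPM in WT FAC and 1.27 CPM in WT AC, and in KO under AC, at 0.0745 CPM in KO AC. Cdh5, the endothelial cadherin, fell by 2.95 ± 0.21 in KO under FAC, and Asgr1 rose by 2.24 ± 0.15 under FAC and 1.95 ± 0.15 under AC.

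Of 13 tested Fxr targets known from liver, 5 were higher and 1 lower with FAC in KO (median log2 fold change 0.32), 0 and 1 with FAC in WT (0.05), 8 and 0 in KO under FAC (0.67) and 8 and 1 in KO under AC (0.60). The counts do not part genes that Fxr activates from genes that it holds down. Abcb11, the bile salt export pump and a gene that Fxr activates, fell by 1.48 ± 0.19 in KO under AC (adjusted p = 4.7e-05), opposite to the chains. It was the 1 target called lower there. In KO under FAC it was not called (-0.37 ± 0.18, adjusted p = 0.102 in edgeR), and the libraries overlapped. Abcb11 rose by 1.06 ± 0.20 with FAC in KO (adjusted p = 0.00164). Slco1b2, a bile acid uptake carrier, rose by 1.25 ± 0.23 with FAC in KO, 3.30 ± 0.27 in KO under FAC and 2.10 ± 0.28 in KO under AC. Slco1b2 was low in WT, at 1.42 CPM in WT FAC and 1.38 CPM in WT AC. Cyp8b1, the sterol 12-hydroxylase that Fxr holds down, was higher in KO under FAC (1.93 ± 0.56) and AC (1.82 ± 0.62), calls lost in 2 and 4 of 6 fits with a compared library left out. C3, a complement gene, was the one target called with FAC in WT, where it fell by 0.46 ± 0.09 (adjusted p = 0.0028). In KO, C3 was higher by 0.67 ± 0.09 under FAC and 0.59 ± 0.09 under AC. Pltp (1.64 ± 0.16 and 1.39 ± 0.17) and Fetub (0.67 ± 0.08 and 0.44 ± 0.08) were called higher there too. Nr0b2 was called in none of these comparisons, at 0.327 to 1.03 CPM as group means.

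**Figure D5:**
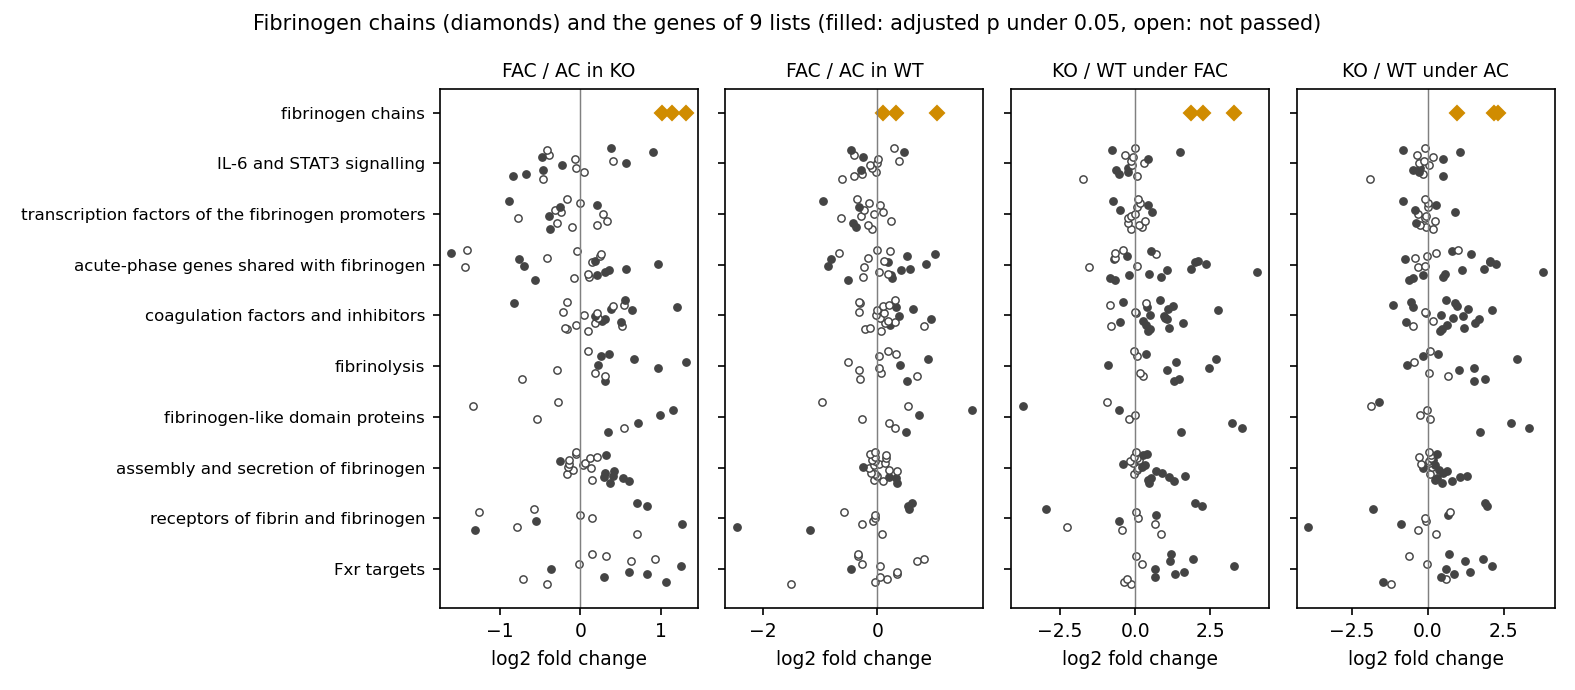
Log2 fold change of each tested gene of the 9 lists (circles) and of Fga, Fgb and Fgg (diamonds) for FAC over AC in KO and in WT and for KO over WT under FAC and under AC. The chains lie right of 0 in every panel, at 1.01 to 1.31 in the first, while each list has genes on both sides of 0.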

How the data were processed

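RNA of 12 libraries was sequenced, prepared for a BGISEQ-500 per the labels' protocols. Per the submitters' processing notes, RSEM was used, with mm10 and GRCm38.p6. The aligner, the annotation and the strand setting are, in the sources used here, not given. The authors deposited expected counts per gene without normalization, FPKM values scaled by length and library total, and TPM values. Of 16728 genes, 16629 identifiers matched RefSeq, and 22 of 28 symbols that a spreadsheet had altered were restored through them.

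The expected counts were rounded, scaled by TMM and fitted with edgeR 4.0.16 in R 4.3.3 (quasi-likelihood, robust, trended dispersion, 4 group means, filterByExpr with a minimum count of 10, 12275 genes kept and 4453 removed). Benjamini-Hochberg adjustment ran over every gene kept, and an adjusted p under 0.05 was a call. The SE is the absolute log2 fold change divided by the square root of F. The biological coefficient of variation was 10.8%. CPM are counts scaled to the library total with TMM factors. Ratios of chains were compared by exact permutation with scipy 1.17.1, and matplotlib 3.10.9 drew the figures. Simulated data with 200 changed genes served as a test of the scripts.

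The members and the 16 lists (206 genes, 7 of the lists being cell type markers) were chosen with earlier results of these data known. Named genes are the chains, the first of at most 4 called genes of largest change per list and comparison, 5 neighbours on each side and the 8 nearest profiles. A gene that this rule names is not reported here, though it is included in the counts. Alternatives were DESeq2 1.42.0, limma 3.58.1 on log2(FPKM + 1), log2(FPKM + 0.1) and log2(TPM + 1), other filters, scalings and dispersions, the replicate number as a block, and libraries left out.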

Additional observations from a re-analysis of the deposited data

Results flagged for a closer look

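For 6 of 138 tested genes of the lists around fibrinogen (4.35%, against 3.15% of all tested genes) the effect of FAC differed between KO and WT by the test of the difference itself (KO minus WT on the log2 scale, edgeR, adjusted over 12275 genes). The difference was 1.11 ± 0.26 for the bile salt pump gene Abcb11 (adjusted p = 0.0392), 0.88 ± 0.13 for the thrombin inhibitor gene Serpind1 (adjusted p = 0.00389) and -0.62 ± 0.14 for F13b, the carrier subunit of the fibrin-crosslinking factor (adjusted p = 0.0306). For chaperone and isomerase genes it was 0.50 ± 0.10 for Hsp90b1 (adjusted p = 0.0199), 0.43 ± 0.09 for Calr (adjusted p = 0.0247) and 0.40 ± 0.07 for P4hb (adjusted p = 0.0118). F13b alone had the sign opposite to Fga and Fgb. Without 1 library the call of Abcb11 was lost in 8 of 12 fits, that of Calr in 7 and that of F13b in 6. That of Hsp90b1 was lost in 5, and those of Serpind1 and P4hb in none. With the replicate number as a block the calls of Abcb11, F13b, Calr and P4hb were lost.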

How the results depend on the processing

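Of 294 values of the chains under alternatives, 276 kept their direction and their side of the threshold, or moved by less than the spread between replicates. Fga with FAC in WT passed without WT AC 2 (0.43, adjusted p = 0.0456), without KO AC 1 and KO FAC 6 (0.33, adjusted p = 0.0445) and without KO AC 1 and KO FAC 4 (0.33, adjusted p = 0.0369), all in edgeR. With 1 library left out its log2 fold change ranged from 0.22 to 0.43. Fgb with FAC in WT reversed to -0.04 with TPM and to -0.03 without WT FAC 6, and ranged from -0.03 to 0.19 with 1 library left out. The difference for Fgg reversed to -0.01 without WT AC 2 and ranged from -0.01 to 0.23. Without KO AC 1 and KO FAC 4, the FAC effects in KO were 1.49, 1.22 and 1.39 and the differences 1.16, 1.12 and 0.36 for Fga, Fgb and Fgg. With TPM the FAC effects in KO were 1.08 for Fga and 0.82 for Fgb, KO over WT was 2.15 for Fga under AC, and under FAC it was 3.05 for Fga and 2.07 for Fgg. With log2(FPKM + 1) Fga under FAC was 3.11. By estimated reads without length, shares in KO FAC, KO AC, WT FAC and WT AC were 30.2%, 26.7%, 15.0% and 15.1% for Fga and 42.6%, 46.2%, 57.0% and 67.7% for Fgb, and those of Fgg were 27.2% in KO FAC, 27.1% in KO AC and 17.2% in WT AC. The cause was not tested beyond the units themselves.

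Genes called with FAC in WT were 2117, against 3345 in a fit of the compared groups alone and 1250 to 1656 with 1 library left out. With FAC in KO they were 3633, against 2199 in a fit of the compared groups and 2371 to 4095. In the difference they were 387, against 584 with limma on log2(FPKM + 1), 678 with DESeq2, 1918 without KO AC 1 and KO FAC 4 and 95 to 643 with 1 library left out. With the replicate number as a block they were 84 in the difference, 4670 in KO under AC and 5688 in KO under FAC, against 5265 and 6071 without it. The numbers give no pairing: deviations of same-numbered KO and WT libraries correlated at -0.14 to 0.21, and 1 of 6 libraries correlated best with its own number. Of 91 calls of list genes named, 66 held in every alternative that gave a value and 23 were lost without 1 library. Under the block the calls of P4hb (adjusted p = 0.0579 in edgeR), Calr (0.0712), F13b and Abcb11 in the difference were not made. That of Abcb11 was also lost in limma on log2(FPKM + 1), log2(FPKM + 0.1) and log2(TPM + 1). The last of these lost that of Hsp90b1 too. Depth was 16464494 to 18335700 reads, and what it limits was not tested.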
